A study of Mus musculus with 7 samples.

Results

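The 10 genes described here are transcription factors and a methyltransferase gene of the muscle lineage: Myod1, Myog, Myf5, Myf6, Mef2a, Mef2c, Mef2d, Pax3, Pax7 and Smyd1. They were found by gene symbol among the 34592 genes of the count table, where all 10 had a row. The question put to them was whether the rise of muscle contractile genes in mouse Group 3 medulloblastomas (G3 MBs) with enforced WDR11 expression came with a rise of these factors. A rise was not detectable for most of them. Counts of the 4 myogenic factors and of Pax3 and Pax7 were at or near 0 in every tumor. Among them Myf6 had 22 counts in the WDR11OE tumors against 2 in controls. It was too low for the test, and scaled to depth its groups overlapped. Mef2d was 2.22-fold lower in the WDR11OE tumors, and Mef2a and Mef2c did not pass the test. Smyd1 was 4.0-fold higher at a very low level, a call that ended in 8 of 16 alternative settings.

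By the study's methods, RNA was sequenced from 7 mouse tumors, 3 control tumors and 4 tumors with enforced expression of human WDR11 (WDR11OE). By the labels all came from a single G3 MB tumorsphere line, made from cerebellar granule neuron progenitors of Trp53-/-; Cdkn2c-/- mice. The progenitors had been infected with a Myc retrovirus, so both groups share these alleles and the Myc virus. The study's methods give GFP as the marker on this virus, while a figure legend of the study gives RFP. The spheres were infected with a pCDH-EF1 lentivirus with copGFP, which held WDR11 behind the EF1 promoter or, for the controls, no insert according to the study's methods, while the labels list the controls as untreated. Infected cells were not sorted before they were placed in the cortex of CD1-nu/nu mice, so uninfected tumor cells can be part of each sample. The study took RNA both from tumorspheres and from pieces of tumor, and tumors were taken when the mice were moribund. It calls the sequenced samples tumors in its methods and tumorspheres in its abstract. Host cells can thus be part of each sample, but which material was sequenced is not certain. The methods describe the G3 model with progenitors from pups in the days after birth and hosts that were young adults at implantation, and the ages of these hosts at collection are not given in the sources used here. The labels give no replicate numbers, and control tumors 1 to 3 and WDR11OE tumors 1 to 4 are numbered in the order of deposit. The titles of WDR11OE tumors 1 and 2 share a number that the other tumors lack, and what they share is not given; they are counted here as separate tumors, and results that changed with them summed are given further on. Nothing in the sources says that each tumor came from a separate infection, so p-values measure the spread between these tumors.

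MYOD1, MYF5, myogenin (Myog) and MRF4 (Myf6) are basic helix-loop-helix (bHLH) proteins that bind E boxes together with E proteins and switch on muscle genes, MYOD1 and MYF5 in committed myoblasts, myogenin at the onset of differentiation and MRF4 in differentiated fibers. PAX3 and PAX7 act before them in muscle progenitors and satellite cells. MEF2 proteins bind an A and T rich element in muscle promoters and act with the bHLH factors, but they are also made in neurons and many other cells, while SMYD1 is a histone methyltransferase of heart and skeletal muscle that is needed to build the sarcomere.

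Total counts ranged from 33417175 to 41397427 in control tumors and from 32116095 to 87141305 in WDR11OE tumors. Levels are given as CPM, the count scaled to the depth of its library after TMM normalization, and 3 counts correspond to between 0.0329 CPM and 0.0924 CPM depending on the library. The 17389 genes that passed edgeR's filter on low counts entered the quasi-likelihood test of edgeR, adjusted by Benjamini-Hochberg over all of them, and a gene is said to rise or fall where the adjusted p was under 0.05. Of the genes tested, 18.1% rose and 15.8% fell (33.9% together), and the median log2 fold change of WDR11OE against control was 0.08. The mouse gene Wdr11 was measured at 58.3 to 59.3 CPM in controls and 61.0 to 68.9 CPM in WDR11OE tumors (log2 fold change 0.16, standard error (SE) 0.06, adjusted p = 0.0910 from edgeR), and the table does not separate reads of the human cDNA, so the transgene could not be checked. The control and WDR11OE libraries were numbered in separate series with a single condition each, so an effect of the series and an effect of WDR11 cannot be told apart. Of the markers of the granule neuron lineage, Atoh1 had 0 counts in every tumor and Barhl1 had 1 count in all, while the summed level of the 7 markers lay between 46.2 and 53.7 CPM in controls and between 42.6 and 94.4 CPM in WDR11OE tumors.

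Promoter sequences are shown for 3 of the factors and for 2 contractile genes whose counts were near 0 in controls and rose in all WDR11OE tumors. They are RefSeq windows of the table for GRCm38.p6, from 250 bases before to 50 bases after the start of the gene, written 5′ to 3′ on the strand of the gene. The counts were made on the older build NCBIM37, and coordinates of the genes further on are from that build. Capitals mark E boxes (CANNTG), the MEF2 motif (YTAWWWWTAR) and the CArG box bound by serum response factor (CCWWWWWWGG), each searched on both strands. Here Y is C or T, W is A or T, R is A or G and N is any base. The motifs in these windows do not overlap, but the MEF2 motif of Mybpc3 is followed directly by an E box.
Myog, chr1:134289754-134290053, plus strand, 2 E boxes: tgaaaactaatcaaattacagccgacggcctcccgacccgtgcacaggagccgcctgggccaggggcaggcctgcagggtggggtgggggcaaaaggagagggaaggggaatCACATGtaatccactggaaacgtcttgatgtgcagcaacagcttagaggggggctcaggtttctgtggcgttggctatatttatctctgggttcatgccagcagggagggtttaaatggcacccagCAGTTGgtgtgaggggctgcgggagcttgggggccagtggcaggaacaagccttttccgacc
Mef2d, chr3:88142122-88142421, plus strand, none of the motifs: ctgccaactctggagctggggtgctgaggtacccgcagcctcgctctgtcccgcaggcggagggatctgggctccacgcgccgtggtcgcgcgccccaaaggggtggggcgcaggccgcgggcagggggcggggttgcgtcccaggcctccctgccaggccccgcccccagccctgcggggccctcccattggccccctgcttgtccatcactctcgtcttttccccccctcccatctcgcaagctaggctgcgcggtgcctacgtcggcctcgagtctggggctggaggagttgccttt
Smyd1, chr6:71262232-71262531, minus strand, none of the motifs: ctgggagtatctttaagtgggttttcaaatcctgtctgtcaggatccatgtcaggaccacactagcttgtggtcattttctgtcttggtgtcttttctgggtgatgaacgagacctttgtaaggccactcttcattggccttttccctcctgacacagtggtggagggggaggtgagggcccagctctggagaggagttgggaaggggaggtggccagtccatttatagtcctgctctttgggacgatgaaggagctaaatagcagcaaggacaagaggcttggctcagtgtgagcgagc
Myh4, chr11:67237562-67237861, plus strand, 3 E boxes, 1 MEF2 motif and 1 CArG box: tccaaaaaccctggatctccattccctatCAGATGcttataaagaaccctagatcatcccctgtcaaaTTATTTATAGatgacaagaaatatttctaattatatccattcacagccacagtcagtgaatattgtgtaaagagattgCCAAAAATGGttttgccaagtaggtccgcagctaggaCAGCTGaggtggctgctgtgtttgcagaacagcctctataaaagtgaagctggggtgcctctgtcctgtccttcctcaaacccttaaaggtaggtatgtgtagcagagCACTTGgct
Mybpc3, chr2:91117894-91118193, plus strand, 3 E boxes and 1 MEF2 motif: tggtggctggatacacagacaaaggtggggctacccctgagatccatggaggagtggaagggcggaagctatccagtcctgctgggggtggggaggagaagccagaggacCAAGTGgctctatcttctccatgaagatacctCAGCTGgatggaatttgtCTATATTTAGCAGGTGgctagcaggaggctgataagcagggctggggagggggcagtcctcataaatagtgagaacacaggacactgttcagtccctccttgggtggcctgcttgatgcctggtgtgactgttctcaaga

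Windows were found for 7 of the 10 factors, with 9 starts in all. An E box stood in 3 of the 9 windows (33.33%), 1 of Myog and 2 of Mef2c, against 72.31% of all 32851 promoter windows of the table. The MEF2 motif stood in 1 of the 9 (11.11%), that of Mef2a, against 3.19% of all windows. Among 17 windows of fast skeletal muscle genes, 76.47% held an E box, 23.53% the MEF2 motif and 11.76% a CArG box, which was present in 1.63% of all windows. A match of letters is not a bound site, and a window with no match can still hold a site that departs from the motif. The Myog window holds CTATATTTAT, which departs from the MEF2 motif as searched only in its last base and is not marked.

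Of the 10 factors, 4 entered the test, namely Mef2a, Mef2c, Mef2d and Smyd1, and the other 6 were too low for it. Among these 4, 1 rose (Smyd1, where 18.1% of all genes tested rose) and 1 fell (Mef2d, where 15.8% fell). The study's own rule also asked for a change of 2-fold or more and an average log2 CPM above 0, and by it Mef2d fell and Smyd1 was too low to count, where 2.36% of all genes tested rose and 3.45% fell (5.81% together). The levels fell into separate ranges. Per kilobase of exon (FPKM, from the union of exons in the annotation), the mean over all tumors was 13.0 for Mef2c, 11.3 for Mef2a and 7.44 for Mef2d, which put them at percentiles 83.2, 80.7 and 73.3 of 22056 protein-coding genes. Smyd1 was at 0.0898 FPKM, Myf6 at 0.0564 FPKM and Myog at 0.0153 FPKM, and Pax3, Myod1, Pax7 and Myf5 were lower still. Mef2c and Mef2a, neighbors in this order, overlapped in their levels over the tumors.

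**Figure D1:**
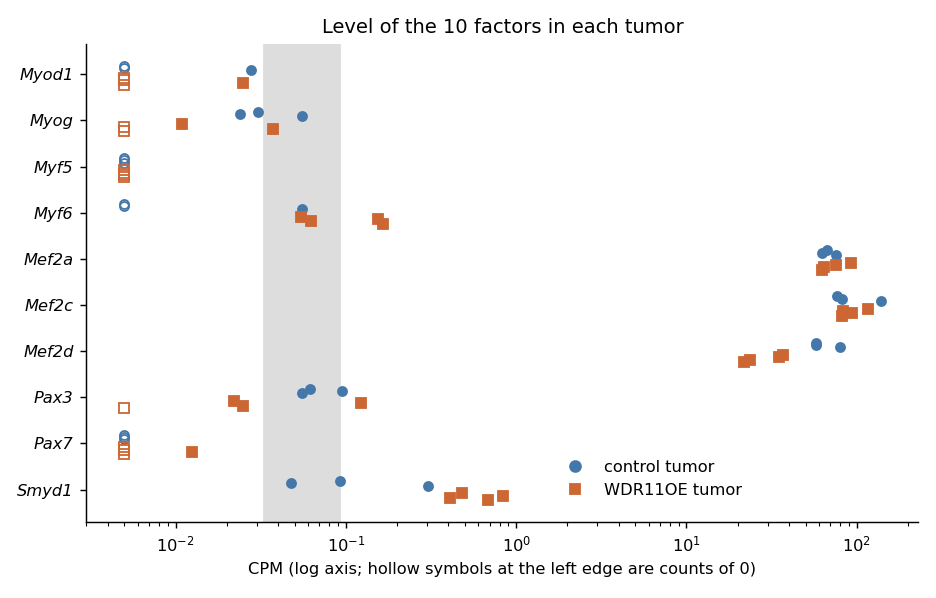
CPM of each of the 10 factors on a log axis, with 1 symbol per tumor (blue circles for the 3 control tumors, orange squares for the 4 WDR11OE tumors) and hollow symbols at the left edge for a count of 0. The grey band spans the CPM of 3 counts, 0.0329 to 0.0924; the MEF2 genes lie at 21.7 CPM and above, Smyd1 lies higher in every WDR11OE tumor than in any control, and the myogenic and PAX factors lie in or near the band.

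Myod1 (NCBIM37 chr7:53631844-53634462, plus strand), the myoblast determination factor, had 1, 0 and 0 counts in control tumors 1 to 3 and 0, 2, 0 and 0 counts in WDR11OE tumors 1 to 4. Myf5 (chr10:106919964-106923190, minus strand), which acts alongside it in the embryo, had 0 counts in all 7 tumors, which allows a level of up to 0.00841 CPM over all of them. Myog (chr1:136186581-136189124, plus strand), the differentiation factor, had 2, 1 and 1 counts in controls and 0, 3, 0 and 1 in WDR11OE tumors. No tumor had over 3 counts of any of these 3 genes, and the tumor with the most counts of Myod1 and Myog was WDR11OE tumor 2, which is among the deepest libraries. The pooled counts of Myog, 4 in controls and 4 in WDR11OE tumors, gave a ratio of 0.449 (95% interval of counting error 0.0837 to 2.41). Those of Myod1, 1 and 2, gave 0.898 (0.0468 to 53.0). At this depth a severalfold change of Myod1 in either direction, or a severalfold fall of Myog, was not detectable.

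Myf6 (chr10:106929916-106931785, minus strand), which lies 6725 bases from Myf5 on the same strand, was the exception among the bHLH factors in that it had counts in every WDR11OE tumor. It had 2, 0 and 0 counts in control tumors 1 to 3 and 7, 5, 5 and 5 counts in WDR11OE tumors 1 to 4. The counts were higher in each WDR11OE tumor, but scaled to depth the groups overlapped, with control tumor 1 at 0.0556 CPM and WDR11OE tumor 4 at 0.0548 CPM. The pooled ratio of 22 to 2 counts was 4.94 (95% interval of counting error 1.21 to 43.3). With no filter on low counts, so that Myf6 could be fitted, the adjusted p from edgeR was 0.195 at a log2 fold change of 2.31 (SE 1.07).

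Pax3 (chr1:78097842-78193709, minus strand), a factor of migrating muscle progenitors that is also used in the neural tube and neural crest, had 2, 4 and 2 counts in controls and 0, 2, 4 and 2 in WDR11OE tumors. Pax7 (chr4:139292977-139389445, minus strand), the satellite cell factor, had a single count, in WDR11OE tumor 2. Neither gene stood out in any tumor, and the pooled ratio of Pax3, 8 to 8 counts, was 0.449 (0.147 to 1.37). With no filter the adjusted p values from edgeR were 0.537 for Pax3, 0.585 for Pax7, 0.491 for Myog and 0.946 for Myod1.

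The MEF2 genes, by contrast, had at least 918 counts in every tumor. Mef2a (chr7:74376049-74517744, minus strand) was at 75.9, 62.5 and 66.6 CPM in control tumors 1 to 3 and at 62.6, 64.3, 75.6 and 92.8 CPM in WDR11OE tumors 1 to 4. The groups overlapped, with WDR11OE tumor 4 highest (log2 fold change 0.11, SE 0.15, adjusted p = 0.615 from edgeR). Mef2c (chr13:83643033-83806684, plus strand), a factor of heart, skeletal muscle and neurons, was at 138.0, 81.4 and 76.3 CPM in controls and at 81.4, 94.3, 83.3 and 117.0 CPM in WDR11OE tumors. Here too the groups overlapped, with control tumor 1 highest and WDR11OE tumor 4 next (log2 fold change −0.07, SE 0.23, adjusted p = 0.852 from edgeR). The direction of both genes was not stable: Mef2a turned to −0.19 once the trend with GC content was removed and to −0.02 without WDR11OE tumor 4, and Mef2c turned to 0.25 without control tumor 1.

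Mef2d (chr3:87946294-87976008, plus strand), the widely expressed member that is also induced in muscle, was at 79.6, 57.5 and 57.7 CPM in control tumors 1 to 3. It was at 21.7, 23.6, 35.03 and 36.8 CPM in WDR11OE tumors 1 to 4. Every WDR11OE tumor was below every control tumor, as for 19.1% of the genes tested. The mean level in controls was 64.9 ± 12.7 CPM (SD, n = 3) and that in WDR11OE tumors 29.3 ± 7.71 CPM (SD, n = 4), and the log2 fold change was −1.15 (SE 0.22, adjusted p = 0.0074 from edgeR). Mef2d fell under all 17 alternative settings, by a log2 fold change between −1.28 and −0.98. Reads on Mef2d may in part belong to the lincRNA 1700113A16Rik on the opposite strand, which shares 527 exon bases (8.81% of the exons of Mef2d). That gene had 738 counts in all and Mef2d 14455. How reads on the shared bases were assigned is not known, and their part was not tested.

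The other MEF2 gene of the mouse, Mef2b, had 0 counts in every tumor. The composition of the MEF2 transcripts therefore changed while their sum overlapped between the groups. Summed over Mef2a, Mef2c and Mef2d, the level was 34.97 ± 7.78 FPKM (SD, n = 3) in controls and 29.3 ± 5.24 FPKM (SD, n = 4) in WDR11OE tumors. Mef2d took 30.2%, 31.5% and 31.6% of this sum in control tumors 1 to 3 and 14.8%, 14.7%, 20.2% and 16.8% in WDR11OE tumors 1 to 4. The controls were alike, and all WDR11OE tumors were lower. Mef2c was the largest share in every WDR11OE tumor except tumor 3, where Mef2a took 41.1% and Mef2c 38.8%.

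**Figure D2:**
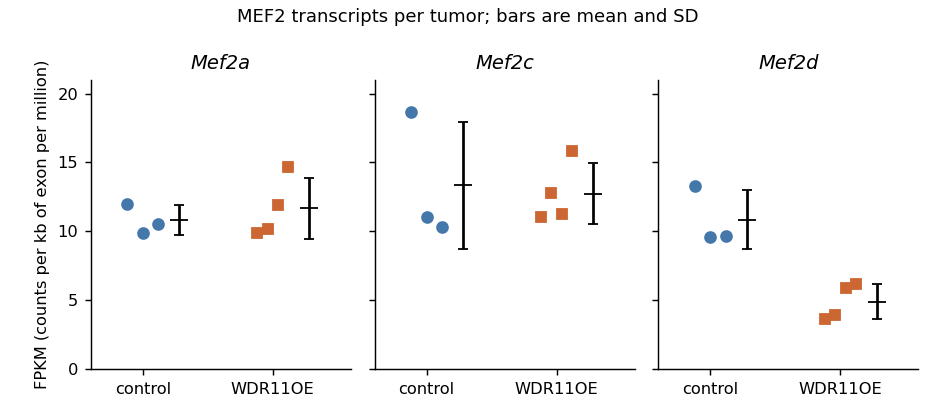
FPKM of Mef2a, Mef2c and Mef2d, with 1 symbol per tumor (blue circles for 3 control, orange squares for 4 WDR11OE tumors) and the mean with its SD beside them. The groups overlap for Mef2a and Mef2c, while Mef2d lies between 9.60 and 13.3 FPKM in controls and between 3.63 and 6.14 FPKM in WDR11OE tumors.

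Neurons also express MEF2 genes, and host brain can be part of the samples, so neuron markers are given beside them. None of the 8 neuron markers passed the test, and their summed level was 441.1, 146.7 and 69.0 CPM in control tumors 1 to 3 and 12.5, 28.2, 209.3 and 683.9 CPM in WDR11OE tumors 1 to 4. Control tumor 1 and WDR11OE tumor 4 had the highest sums, as they had the highest Mef2c. Within the WDR11OE tumors, Mef2a and Mef2d also rose in the order of this sum. Control tumor 3, which had the lowest sum of the controls, had 57.7 CPM of Mef2d, and WDR11OE tumor 4, which had the highest sum, had 36.8 CPM. The part of neurons in these levels was not tested. In bulk tumor RNA, fewer cells of a type and less RNA per cell cannot be told apart.

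Over all genes tested with a known exon sequence, the log2 fold change fell with GC content (Spearman's rho −0.34 over 17125 genes, which are not independent replicates). The exons of Mef2d have 55.1% GC, and the 1738 genes of 54 to 56% GC had a median log2 fold change of −0.12. Those of Mef2a and Mef2c have 40.8% and 41.1% GC, and the 1031 genes of 40 to 42% GC had a median of 0.39. With the trend removed, Mef2d was at −0.98 (adjusted p = 0.0211 from edgeR), Mef2a at −0.19 (adjusted p = 0.337) and Mef2c at −0.36 (adjusted p = 0.268).

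Smyd1 (chr6:71163934-71272227, minus strand) had 11, 2 and 3 counts in control tumors 1 to 3 and 29, 33, 27 and 44 counts in WDR11OE tumors 1 to 4. Scaled to depth this was 0.306, 0.0477 and 0.0919 CPM in controls and 0.687, 0.412, 0.832 and 0.482 CPM in WDR11OE tumors. Every WDR11OE tumor was above every control, as for 23.5% of the genes tested, and control tumor 1 was well above the other controls. The log2 fold change was 2.00 (SE 0.62, adjusted p = 0.0424 from edgeR). Smyd1 had few counts in the controls and entered the test mainly through the WDR11OE tumors, which tilts the call towards a rise. With no filter on low counts the adjusted p from edgeR was 0.0608. The call was close to the threshold and ended in 8 of 16 alternative settings. It was lost with WDR11OE tumors 1 and 2 summed (adjusted p = 0.0778 from edgeR, an alternative chosen after seeing the data) and also without control tumor 2 (adjusted p = 0.109 from edgeR), without control tumor 3 (0.130) and without WDR11OE tumor 1 (0.0953), 2 (0.0628) or 3 (0.0899), while without control tumor 1 the log2 fold change was 3.08 (adjusted p = 0.0108). Krcc1 and Gm1070 lie within the Smyd1 locus on the opposite strand but share none of its exon bases.

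For these 4 genes the two-sided exact permutation test of mean log2 CPM over the 35 splits of the tumors gave p = 0.0286 for Mef2d and for Smyd1, the smallest this test can give, and 0.629 for Mef2a and 0.971 for Mef2c.

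Many contractile genes that these factors are known to control rose. Of 20 genes of fast skeletal muscle, 17 were tested and 14 rose, where 18.1% of all genes tested rose, with a median log2 fold change of 4.02 over those tested. Of 22 genes of slow skeletal and cardiac muscle, 14 were tested and 9 rose, with a median of 1.05, and none of either list fell. Genes near 0 in the controls could enter the test only through their WDR11OE counts, which tilts these shares and medians towards a rise. With no filter, 14 of 20 fast genes rose (median log2 fold change 3.45), where 2093 of the 34592 genes of the count table rose. Only genes with a count were tested there, so the share of genes tested that rose is somewhat larger than these numbers give. The 18.1% belongs to the filtered genes. Of 22 slow and cardiac genes, 8 then rose (median 0.99). Myh4, the myosin heavy chain of the fastest fibers, was at 0.167, 0 and 0 CPM in control tumors 1 to 3 and at 25.7, 12.8, 36.2 and 11.9 CPM in WDR11OE tumors 1 to 4. Its raw counts in WDR11OE tumors 1 to 4 were level, at 1084, 1030, 1176 and 1089, while total counts ranged from 32116095 to 87141305. Those of Mef2a, at 2645, 5155, 2453 and 8472, were higher in the deeper libraries. The cause of this difference was not tested. Ckm, the muscle creatine kinase, was at 0.0278, 0.0238 and 0 CPM in controls and at 12.03, 6.71, 16.8 and 4.63 CPM in WDR11OE tumors. Both were near or at 0 in the controls and the groups did not overlap, with adjusted p = 0.0014 for Myh4 and 0.00098 for Ckm from edgeR.

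Mybpc3, the cardiac myosin binding protein C, was at 0.111, 0.191 and 0.0613 CPM in controls and at 46.1, 31.9, 24.4 and 25.3 CPM in WDR11OE tumors. It did not overlap between the groups (log2 fold change 7.97, SE 0.44, adjusted p = 0.00064 from edgeR). Mb, the oxygen store myoglobin, had 0 counts in every control and 99, 126, 155 and 126 counts in the WDR11OE tumors, at least 76-fold higher against a floor of 3 counts over the controls. At the other end of these lists, the calcium channel genes Ryr1 and Cacna1s had log2 fold changes of 0.04 (adjusted p = 0.931 from edgeR) and 0.44 (adjusted p = 0.0862), and Tnnc1 and Myl4 had 0.14 (adjusted p = 0.872) and −0.05 (adjusted p = 0.940).

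**Figure D3:**
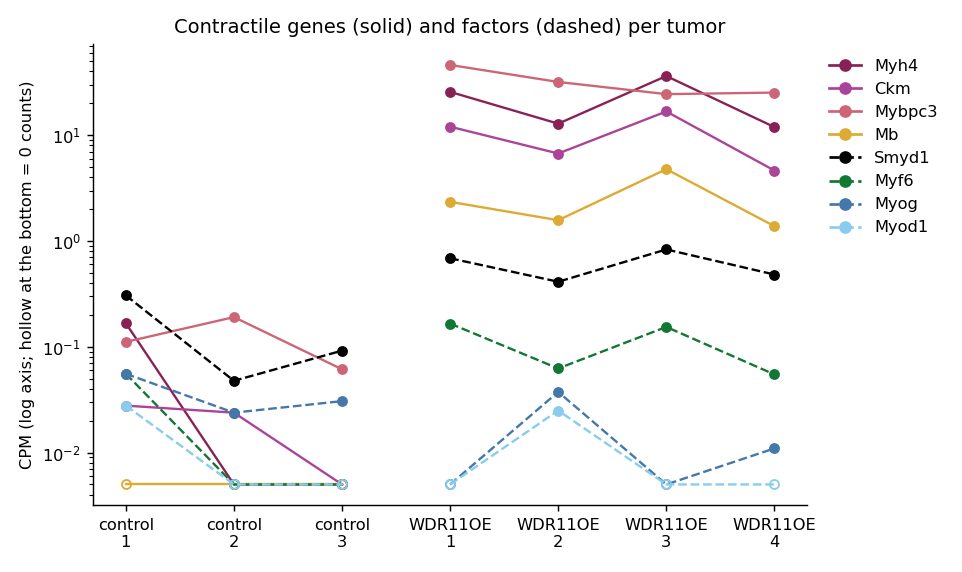
CPM on a log axis in each of the 7 tumors for the contractile genes Myh4, Ckm, Mybpc3 and Mb (solid lines) and the factors Smyd1, Myf6, Myog and Myod1 (dashed lines), with hollow symbols at the bottom for a count of 0. Lines only join the values of a gene within a group; in WDR11OE tumors the contractile genes lie between 1.38 and 46.1 CPM, Smyd1 between 0.412 and 0.832 CPM, and Myf6, Myog and Myod1 below 0.2 CPM.

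Smyd1 and most of the fast muscle genes were highest in the same pair of WDR11OE tumors. All 14 fast genes that rose were highest in WDR11OE tumor 3, and 13 of them were next highest in WDR11OE tumor 1, as was Smyd1, at 0.832 and 0.687 CPM. Their lower ranks differed, since Smyd1 was lowest in tumor 2 and all 14 fast genes in tumor 4. Mybpc3 did not have this order and was highest in WDR11OE tumor 1. Tumors 3 and 1 also had the smallest WDR11OE libraries, at 32455007 and 42226210 counts after TMM scaling, against 80156208 and 91296682 for tumors 2 and 4. Raw counts of Acta1 in WDR11OE tumors 1 to 4 were 696, 705, 764 and 725, and those of Tnnt3 533, 552, 513 and 518. Level counts such as these give a rank in CPM that is the inverse of depth. Those of Tnni2, at 378, 933, 381 and 581, were not level. Myf6 was highest in WDR11OE tumors 1 and 3, at 0.166 and 0.154 CPM, and lowest in tumor 4, but on only 5 to 7 counts per tumor. By the correlation of log2 CPM over the 7 tumors, the genes most like Smyd1 among all those tested were Gm15417 (Pearson's r 0.996), Car3 (0.995) and Pvalb (0.994), of which Pvalb is on the list of fast genes. Those most like Mef2d were Pcyt1b, Frmd4a and 4933407C03Rik (each 0.994), those most like Mef2a were Phkg2 (0.993), Pink1 (0.991) and A730017C20Rik (0.986), and those most like Mef2c were Vldlr (0.993), Zdhhc24 (0.975) and Ncald (0.973). These are descriptions over 7 tumors with no test, and Mef2d and Smyd1 themselves correlated at −0.64.

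Genes of differentiating myoblasts gave few counts. Of 15 genes, which include the fusion factors Tmem8c and Gm7325 and the subunits of the acetylcholine receptor, 3 were tested and none rose or fell by edgeR at an adjusted p under 0.05. These were Des, the muscle intermediate filament (log2 fold change 0.45, adjusted p = 0.447 from edgeR), Itga7 (0.82, adjusted p = 0.381) and Chrnb1 (−0.26, adjusted p = 0.555). Gm7325 had 0 counts in every tumor, and Tmem8c had 3, 2 and 3 counts in controls and 2, 12, 3 and 8 in WDR11OE tumors. The embryonic and perinatal myosins Myh3 and Myh8 were also too low to be tested. Myh3 had 8, 3 and 3 counts in controls and 4, 18, 3 and 33 in WDR11OE tumors. Sgca, named here after its values were seen, had 0, 1 and 1 counts in controls and 6, 9, 10 and 6 in WDR11OE tumors.

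The factors that act upstream of the bHLH factors in the muscle lineage did not rise. Of 18 such genes, 15 were tested, none rose and 6 fell (Six2, Six5, Eya1, Eya4, Meox2 and Tbx1), where 18.1% of all genes tested rose and 15.8% fell, with a median log2 fold change of −0.51. Eya1, a transcriptional coactivator of early muscle progenitors, was lower, with 6.16 ± 0.81 CPM (SD, n = 4) in the WDR11OE group against 15.1 ± 1.78 CPM (SD, n = 3) in controls (log2 fold change −1.30, adjusted p = 0.0014 from edgeR). Meox2 fell from a low level of 0.414 ± 0.0407 CPM to 0.0751 ± 0.0505 CPM (adjusted p = 0.0199). With the GC trend removed, 3 of the 6 genes still fell (Eya1, Eya4 and Meox2).

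Partners and inhibitors of the bHLH factors were present in all tumors. Of 18 genes, all tested, 1 rose (Id2) and 6 fell (Tcf3, Tcf4, Twist2, Hey1, Bhlhe41 and Snai1), beside 18.1% and 15.8% of all genes tested. Tcf3, which encodes the E proteins E12 and E47, was lower, at 107.8 ± 12.1 CPM (SD, n = 4) in WDR11OE tumors against 171.8 ± 17.1 CPM (SD, n = 3) in controls (log2 fold change −0.67, adjusted p = 0.0040 from edgeR). Snai1, a repressor that binds E boxes, fell by 1.67 on the log2 scale (adjusted p = 0.0019) and Hey1, a Notch target, by 0.86 (adjusted p = 0.0166). Id2, which sequesters E proteins, rose by 0.76 (adjusted p = 0.0262). With the GC trend removed, the calls of Id2 (adjusted p = 0.107 from edgeR), Tcf3 (0.110) and Twist2 (0.0614) were lost.

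Among 26 partners and regulators of MEF2, 25 were tested, of which 15 fell and 1 rose, where 15.8% of all genes tested fell, with a median log2 fold change of −0.79. The genes that fell were the class IIa histone deacetylases Hdac4 and Hdac7, which repress MEF2, the repressor Cabin1, serum response factor (Srf) with its cofactors Mkl1 and Mkl2, the coactivators Ncoa2, Carm1, Ep300 and Crebbp, the chromatin remodeling subunit Smarcd3, Tead1 and Tead3, and the kinases Mapk7 and Sik1. Both repressors and activators are thus among them. Hdac5, named here as another listed deacetylase of class IIa, did not pass the test (log2 fold change −0.04, adjusted p = 0.787 from limma-voom). Carm1, a methyltransferase and coactivator, was lower, at 49.2 ± 6.32 CPM (SD, n = 4) in WDR11OE tumors against 134.7 ± 8.17 CPM (SD, n = 3) in controls (log2 fold change −1.45, SE 0.11, adjusted p = 0.00086 from edgeR), and Tead1 fell by 1.38 (adjusted p = 0.0017). The acetyltransferase gene Kat2b rose by 0.44 (adjusted p = 0.0078), and Hdac9 and Tead4 had log2 fold changes of 0.76 (adjusted p = 0.317) and 0.61 (adjusted p = 0.170). The exons of these genes had a median GC content of 55.5%, and with the GC trend removed 13 of the 15 still fell, with a median log2 fold change of −0.46.

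Outside the sarcomere, 9 genes known as MEF2 targets in other cells were tested, none rose and 2 fell, a share near the 15.8% of all genes tested that fell, namely Klf4 (log2 fold change −1.39, adjusted p = 0.0016 from edgeR) and Jun (−0.59, adjusted p = 0.0190). Arc and Slc2a4, the glucose transporter of muscle and fat, had log2 fold changes of 0.78 (adjusted p = 0.678) and 0.71 (adjusted p = 0.153), and Bdnf had −1.02 (adjusted p = 0.318). Of 7 other PAX genes, 2 were tested. Pax9 fell by 1.67 on the log2 scale (adjusted p = 0.0032 from edgeR), while Pax6, a gene of the granule neuron lineage, was at 20.5 to 21.2 CPM in controls and 17.2 to 31.2 CPM in WDR11OE tumors (adjusted p = 0.925).

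The relatives and partners of SMYD1 gave smaller fold changes than Smyd1. Of 6 genes, all tested, 1 rose and 2 fell, beside 18.1% and 15.8% of all genes tested. Naca, whose muscle form binds SMYD1, rose by 0.62 on the log2 scale (SE 0.10, adjusted p = 0.0033 from edgeR). The counts are per gene and do not separate that form from the other transcripts of Naca. Smyd2 and Smyd5 fell by 0.30 (adjusted p = 0.0284) and 0.24 (adjusted p = 0.0320), calls that were lost with the GC trend removed. Unc45b, the myosin chaperone, was at 0.368 to 0.429 CPM in controls and 0.387 to 0.678 CPM in WDR11OE tumors, and the groups overlapped (adjusted p = 0.471).

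**Figure D4:**
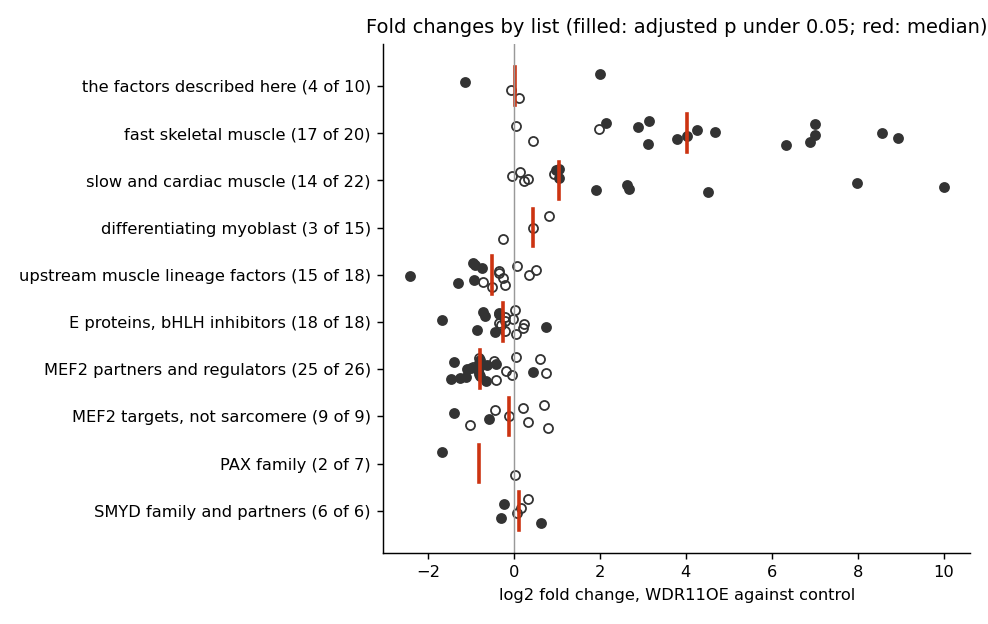
Log2 fold change of WDR11OE against control for each gene tested, by list, with the number tested of the number listed in brackets, filled points for adjusted p under 0.05 from edgeR, and a red line at the median. The fast muscle genes have a median of 4.02 and the 25 partners and regulators of MEF2 a median of −0.79; the point near 10 is Mb, which had 0 counts in all controls, so that its fitted value depends on the prior count.

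Markers of other cell types in the tumor were counted in the same way. Of 6 endothelial, 6 smooth muscle and pericyte, and 5 fibroblast markers, 1 each fell (Cdh5, Pdgfrb and Pdgfra) and none rose, shares near the 15.8% of all genes tested that fell. The summed smooth muscle and pericyte markers were at 170.1 to 193.7 CPM in controls and 135.7 to 169.8 CPM in WDR11OE tumors, so the groups nearly touched. The summed endothelial markers were at 88.2 to 119.8 CPM and 72.4 to 83.6 CPM, with no overlap. Of single genes, 1 of 6 smooth muscle and pericyte markers and 2 of 6 endothelial markers were lower with no overlap, beside 19.1% of all genes tested. The fibroblast sum overlapped between the groups, with control tumor 1 at 1491 CPM and the other tumors between 259.7 and 492.7 CPM. Of the glial markers, 1 of 6 astrocyte markers rose (S100b), where 18.1% of all genes tested rose, and none of 5 oligodendrocyte and 7 microglia markers passed the test. The part of these cells in the levels of the factors was not tested. The source of the contractile transcripts, in tumor cells, in other cells of the samples or elsewhere, was not tested either.

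**Figure D5:**
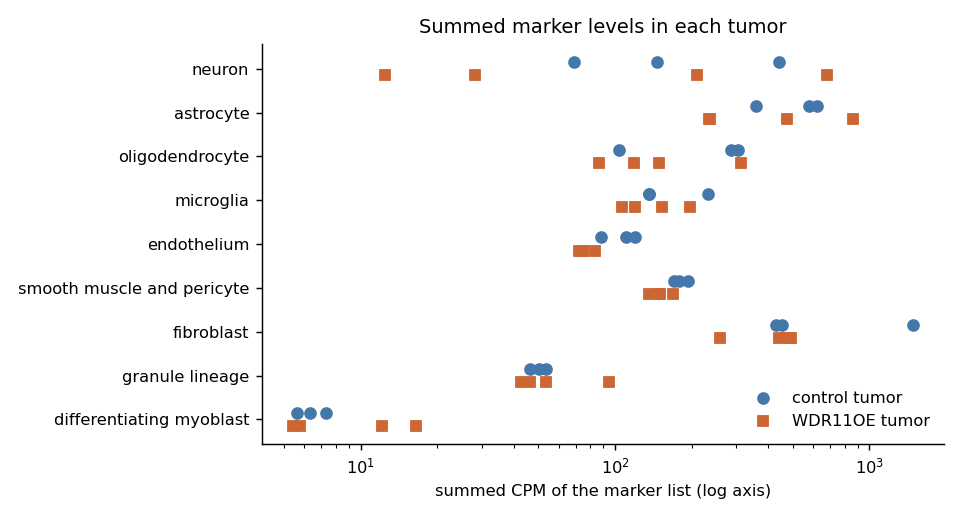
Summed CPM of each marker list on a log axis, with 1 symbol per tumor (blue circles for control, orange squares for WDR11OE). Neuron markers span 12.5 to 683.9 CPM. The endothelial and the smooth muscle and pericyte sums lie lower in every WDR11OE tumor than in any control, the latter by a very small gap (169.8 against 170.1 CPM).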

How the data were processed

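The authors sequenced RNA from 7 tumors, aligned reads to NCBIM37.67 (StrongArm) and used HT-seq with GENCODE to count them. They deposited raw, unscaled counts for 34592 genes. The submitters' processing notes name CASAVA 1.7, STAR, BWA, HTSeq and mm9. The labels name a TruSeq RNA kit and the study's methods a total stranded protocol, and whether strand was used in counting is not given in the sources used here.

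Tumors were grouped by the treatment label (control, n = 3; WDR11OE, n = 4). Counts were tested with edgeR 4.0.16 in R 4.3.3 (TMM, filterByExpr, quasi-likelihood test, Benjamini-Hochberg over 17389 genes, condition as the sole term), and the biological coefficient of variation was 34.6%. The study used limma-voom, which was an alternative here (limma 3.58.1), as was DESeq2 1.42.0. Log2 CPM for permutation tests used a prior count of 2. Exon lengths and GC content came from GENCODE vM1 on NCBIM37, in which 33606 genes (97.15%) were matched. Intervals on pooled counts cover counting error only, at a level of 95%. Within groups, the chi-square per degree of freedom between libraries was 21.1 or more, so no library was present as a duplicate. In simulated data with 200 of 17225 genes changed by a log2 fold of 1.5, the test recovered 48% of them, and 4% of its calls were false. The changed genes were drawn from those above 1 CPM, and all genes had the same coefficient of variation of 34.6%. The recovery therefore does not apply to genes as low as Smyd1 or the bHLH and PAX factors.

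The genes named were the 10 factors, the 2 highest and 2 lowest by fold change in each of 9 lists and 8 marker lists, Myh4, Mybpc3 and Mb, and for each tested factor the 3 genes most alike in log2 CPM over the tumors. A gene that this rule picked is not reported here. Other listed genes are named because they passed the test, or as stated. The factors and the lists were chosen with earlier results of these data known. Leaving out each tumor, other scalings, filters and tests, the study's 2-fold rule and a loess correction for GC content (span 0.3) were planned as alternatives, and summing WDR11OE tumors 1 and 2, the pair most alike and with a shared number in their titles, was added after seeing the data. Protein sequences were not used here.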

Additional observations from a re-analysis of the deposited data

Results flagged for a closer look

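Among 68 genes named by the rule, 8 had a WDR11OE tumor that stood apart from the other 3, with a gap to its neighbor that took more of the range of the group than Dixon's 95% limit for 4 samples allows (a limit which chance passes in about 1 of 20 groups). None of the 10 factors was among them. In 7 of these the tumor was WDR11OE tumor 4. Its levels of Met (7.602 CPM), Id2 (28.2 CPM), Arc (47.7 CPM), Pax6 (31.2 CPM) and Meis1 (36.6 CPM) were above the other WDR11OE tumors, which lay at 4.71, 20.1, 7.52, 19.1 and 21.5 CPM at most. Its levels of Pdgfrb (57.4 CPM) and Col1a1 (81.9 CPM) were below the others, which lay at 73.3 and 270.5 CPM at least. The same tumor had the highest neuron marker sum, 683.9 CPM. WDR11OE tumor 2 stood apart for Myl4 (0.749 CPM, with the others at 0.8289 CPM or more). Their causes were not tested.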

How the results depend on the processing

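Mef2d kept its call and direction under all 17 alternatives, with an adjusted p from edgeR, limma-voom or DESeq2 of 8.7e-07 to 0.0244. Results that changed sign were Mef2a with the GC trend removed (−0.19) or without WDR11OE tumor 4 (−0.019) and Mef2c without control tumor 1 (0.25), none of which passed the test. The call of Smyd1 ended with WDR11OE tumors 1 and 2 summed (log2 fold change 1.97, adjusted p = 0.0778), with no filter (1.96, adjusted p = 0.0608) and under the study's 2-fold rule (2.00, the average being too low), and it was not tested where at least 1 CPM in 3 tumors was required. Leaving out each tumor gave log2 fold changes of −0.019 to 0.19 for Mef2a, −0.22 to 0.25 for Mef2c, −1.28 to −0.98 for Mef2d and 1.56 to 3.08 for Smyd1. The genes that rose in the series numbered 3150, against 1629 with WDR11OE tumors 1 and 2 summed, 410 under the 2-fold rule, 2093 with no filter and 1560 to 2986 with a tumor left out (1560 without WDR11OE tumor 1, 1657 without WDR11OE tumor 2, 2045 without control tumor 2). Those that fell numbered 2744, against 600 under the 2-fold rule and 2011 to 2868 with a tumor left out.

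In the lists, the calls in either direction among partners and inhibitors of bHLH factors were 4 with tumors summed, 1 under the 2-fold rule and 4 to 7 with a tumor left out. Among MEF2 partners they were 5 under the 2-fold rule and 15 to 17 with a tumor left out, among MEF2 targets 1 with the GC trend removed, 1 under the 2-fold rule and 1 to 3 with a tumor left out, and among SMYD genes 1 with the GC trend removed, 1 with tumors summed, 0 under the 2-fold rule and 1 to 2 with a tumor left out. Among upstream factors they were 3 with the GC trend removed, 1 under the 2-fold rule and 3 to 7 with a tumor left out. With a tumor left out, 13 to 16 fast and 6 to 8 slow and cardiac muscle genes, 0 to 1 myoblast genes and 1 PAX gene were called. The causes of these changes were not tested. No paired analysis was possible because the labels give no replicate numbers and the numbers used here follow the order of deposit. At this depth a severalfold change in Myod1, Myf5 or Pax7 could not be detected.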
